A study of Mus musculus with 9 samples.

Results

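The interleukin-1 system is the set of ligands, receptors and processing proteins through which myeloid cells start an inflammatory response. Here it was described by 10 genes taken by symbol from the 22942 rows of the deposited RNA table, and 10 of the 10 were found. The ligands are Il1a, Il1b and the related cytokine Il18. Il1rn is the secreted antagonist, Il1r1 the signalling receptor, Il1rap its accessory chain and Il1r2 a decoy receptor. Nlrp3, Pycard and Casp1 form the inflammasome, a cytosolic complex.

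The cells were bone marrow mononuclear cells of B6.SJL mice, a strain that carries the CD45.1 leukocyte marker. MLL-AF9 cells had received the retrovirus MSCVneo-MLL-AF9, which carries the leukemia fusion of MLL with AF9, together with empty MSCVpuro. Control cells had received the empty viruses MSCVneo and MSCVpuro, so both groups carried both virus backbones. The labels give 3 polyA RNA libraries per group and do not state the age of the animals, the time after transduction, or whether cells were pooled. The table holds 1 pooled value per gene and group, taken as FPKM (fragments normalised to transcript length and library size). Spread between libraries and sequencing depth are therefore unknown, and no value below has an error of its own. The 5hmC libraries of the series were not used here, since gene positions in their build were not at hand.

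IL-1alpha and IL-1beta bind the same receptor, IL-1R1, which recruits the accessory chain IL-1RAcP and signals through MyD88 to NF-kappaB. The antagonist occupies IL-1R1 without signalling, and IL-1R2 binds ligand without a signalling domain. IL-1beta and IL-18 are made as inactive precursors, which caspase-1 cleaves after an NLRP3 inflammasome has assembled on the adaptor ASC, the product of Pycard. In marrow, neutrophils and monocytes are known sources of IL-1beta, and IL-1 acts on blood stem and progenitor cells.

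The ligands Il1b and Il18 and the antagonist Il1rn fell in MLL-AF9 cells, the signalling receptor Il1r1 rose, and Il1rap, Il1r2 and the 3 inflammasome genes did not pass the test. A gene counts as changed where the q-value in the authors' deposited table is under 0.05 and the mean of the 2 groups is at least 1 FPKM. Of the 10 members, 9 reached that mean. Il1a did not, and Il18 and Il1r1 reached it although 1 group was below 1 FPKM. Lower calls were made for 3 members, against 5.2% of the 11538 rows tested, and a higher call for 1 member, against 5.13%. In both directions together 4 members were called, against 10.3% of rows. Without the filter on low values 4 members were again called, beside 1440 of all 22942 rows. Leaving the filter out adds only Il1a to the members, and Il1a is above the threshold of 0.05. The count of members was therefore bound to stay the same and is no check of the calls. The median log2 change of the 10 members, computed as log2(FPKM + 1) in MLL-AF9 over control, was -0.23. It was -0.37 over the 9 that reached the minimum mean, while that of all rows tested was 0.29.

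**Figure D1:**
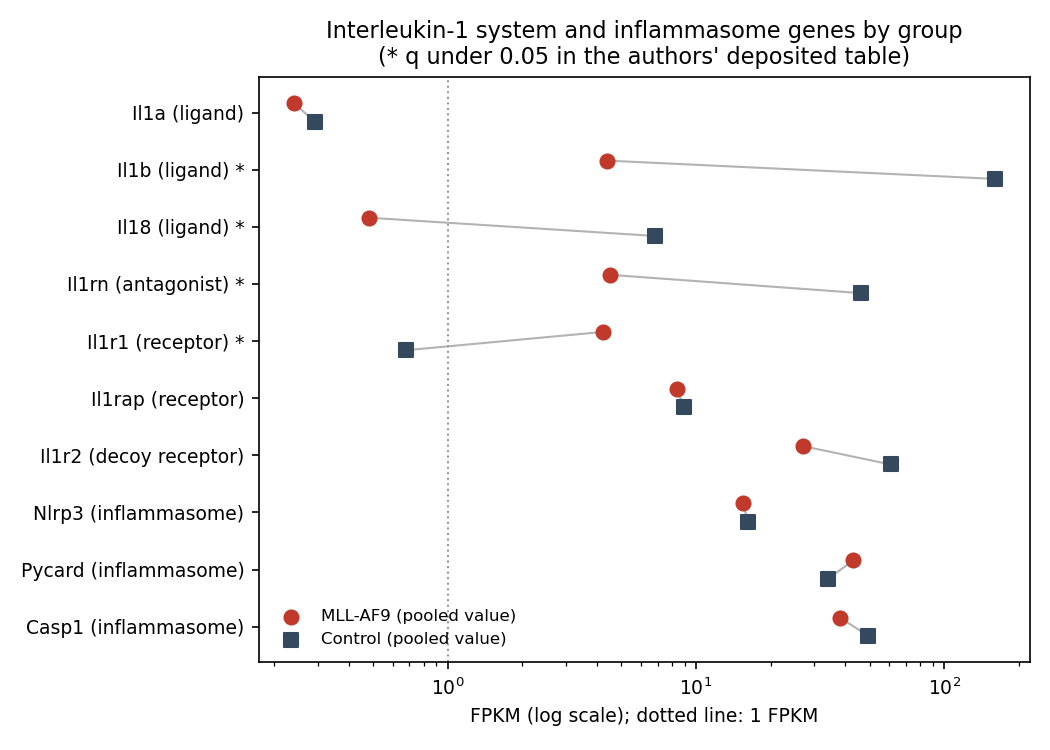
Pooled FPKM of each gene in MLL-AF9 cells (circles) and Control cells (squares) on a log axis, with the role of each gene in brackets; grey lines join the 2 values of a gene and no error bars can be drawn from pooled values. Il1b lies at 4.36 FPKM in MLL-AF9 cells, against 160 FPKM in Control cells, whereas the points of Nlrp3, Pycard and Casp1 lie close together.

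Il1b, the main secreted IL-1 ligand of myeloid cells, changed most. It stood at 4.36 FPKM in MLL-AF9 cells and 160 FPKM in control cells, a 36.6-fold lower level with q = 2.3e-10 in the authors' deposited table. Its log2 change of -4.91 was the 25th lowest of the 11538 rows tested. Among these rows its level lay at percentile 19.3 in MLL-AF9 cells and 94.7 in control cells. The decrease left Il1b as the main ligand of the 3 in FPKM: it made up 85.8% of the summed ligand level of 5.08 FPKM in MLL-AF9 cells and 95.7% of 167 FPKM in control cells.

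Il18, which induces interferon-gamma in lymphocytes, was at 0.480 FPKM in MLL-AF9 cells and 6.86 FPKM in control cells. It was 14.3-fold lower, with q = 0.00417 in the authors' deposited table and a log2 change of -2.41. Il18bp, the secreted protein that neutralises IL-18, fell with it, to 2.92 FPKM in MLL-AF9 cells against 18.2 FPKM in control cells (q = 0.0114 in the authors' deposited table). Il1a, whose product acts without cleavage by caspase-1, had 0.240 FPKM in MLL-AF9 cells against 0.293 FPKM in control cells. It had q = 0.926 in the authors' deposited table and lay under the minimum mean, so a difference could not be judged at this level.

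Il1a and Il1b are neighbours on chromosome 2, and no other protein-coding gene lies between them in the RefSeq annotation. Their levels differed most in control cells, where Il1b was 546-fold above Il1a, against 18.2-fold in MLL-AF9 cells. The bases before their start sites are shown because both genes hold the same core motif at nearly the same distance, at very different levels in control cells. Sequences are from RefSeq in build GRCm38.p6, read 5′ to 3′ on the minus strand of the genome. Capitals mark TATAAA, the core of a TATA box, at bases -31 to -26 of Il1b and -32 to -27 of Il1a, counted from the start site. They also mark TTNNGNAA, a C/EBP-type pair of half-sites, which in Il1a overlaps GAGGAA, the core bound by PU.1 and other ETS factors. The Il1b stretch lies at chr2:129371165-129371259 and covers bases -120 to -26, and the Il1a stretch lies at chr2:129309988-129310017 and covers bases -45 to -16.
Il1b: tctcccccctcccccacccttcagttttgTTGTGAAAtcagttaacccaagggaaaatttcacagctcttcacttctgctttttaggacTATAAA
Il1a: gcTTGAGGAAgacTATAAAaaggcagagaa

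Across the 250 bases before each RefSeq start site, both strands searched, TATAAA was found in 12.4% of 32851 windows, TTNNGNAA in 36.8% and GAGGAA in 23.3%. The 10 members have 14 windows, since some have several starts, and TATAAA was found in 3 of them, those of Il1a, Il1b and Il18. That of Il18 was on the opposite strand at bases -175 to -170, not at the distance seen in Il1a and Il1b. TTNNGNAA was found in 9 of the 14 windows, which belong to Il1a, Il1b, Il1r1, Il1rn, Nlrp3 and Pycard. GAGGAA was found in 4, those of Il1a, Casp1, Nlrp3 and Pycard. TGAGTCA, the AP-1 core, was in 4.46% of all windows and in those of Il1a and 1 start of Il1rn, and the NF-kappaB consensus was in 7.25% and in those of Il1r1 and Nlrp3. These matches are letters in a window and not sites of binding. TTNNGNAA was found before Il1b, which was lower, before Il1r1, which was higher, and before Nlrp3, which was not called.

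Il1rn, the antagonist, fell as the ligand Il1b did. It stood at 4.50 FPKM in MLL-AF9 cells and 46.1 FPKM in control cells, 10.2-fold lower with q = 2.7e-10 in the authors' deposited table, and its log2 change of -3.10 was the 113th lowest. The fall was smaller than that of Il1b, so the antagonist level per ligand was 1.03 in MLL-AF9 cells and 0.289 in control cells. These ratios are between FPKM values of 2 genes, and whether they differ between the groups was not tested. RefSeq gives 3 start sites for Il1rn, and the table does not separate its transcripts. The 120 bases before the first start hold no TTNNGNAA match, and those before the third hold overlapping ones. Which start is used in these cells is unknown, and a part of the motif in the fall was not tested. The bases before the second start, which hold 1 TTNNGNAA match in capitals, lie on the plus strand at chr2:24345171-24345290. They are shown because Il1rn fell together with Il1b.
Il1rn: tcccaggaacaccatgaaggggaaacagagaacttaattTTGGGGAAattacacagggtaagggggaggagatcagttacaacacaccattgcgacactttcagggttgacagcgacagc

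**Figure D2:**
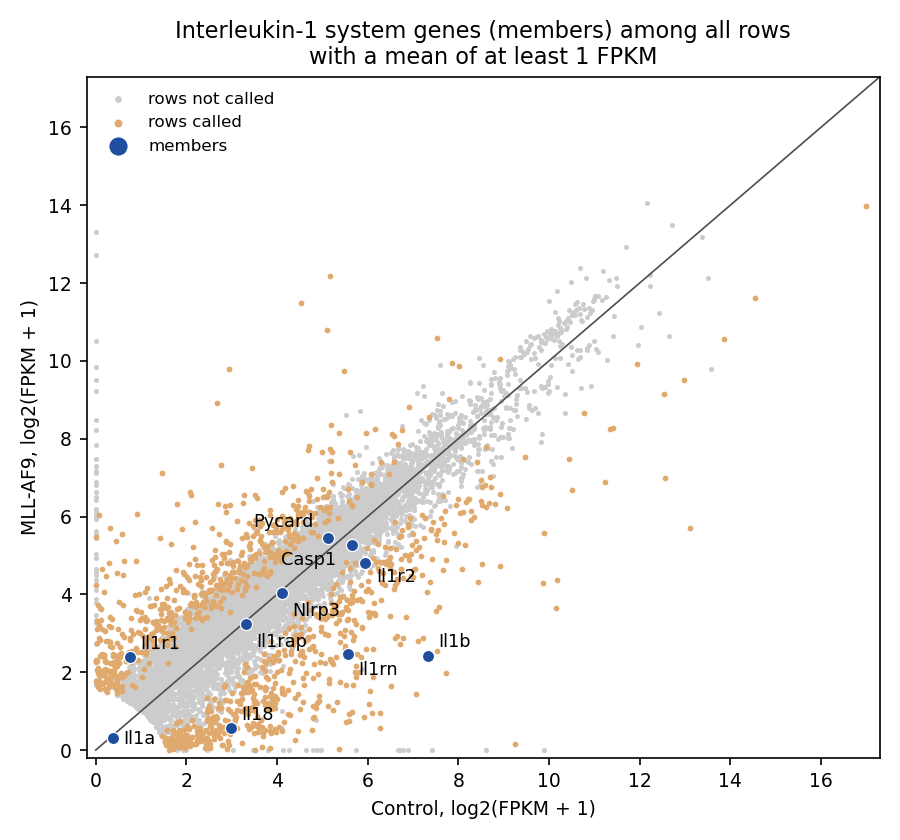
Pooled level of every row with a mean of at least 1 FPKM in Control cells (horizontal) and MLL-AF9 cells (vertical), both as log2(FPKM + 1); rows called at q under 0.05 in the authors' deposited table are orange, other rows grey, and the 10 genes of the system blue, Il1a among them although it is under that mean. Il1b, Il1rn and Il18 lie below the diagonal and Il1r1 above it, while Il1rap, Nlrp3, Casp1 and Pycard lie near it.

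Of the 3 receptor genes 1 was called. Il1r1, the only receptor of the system that signals on IL-1 binding, rose to 4.21 FPKM in MLL-AF9 cells, against 0.681 FPKM in control cells. This was a 6.18-fold higher level with q = 0.00467 in the authors' deposited table and a log2 change of 1.63. Its level was low in both groups, at percentile 18.7 in MLL-AF9 cells and 2.34 in control cells. Il1rap, the accessory chain, was listed at 8.39 FPKM in MLL-AF9 cells and 8.95 FPKM in control cells (q = 0.946 in the authors' deposited table). Il1r2, the decoy, was at 27.0 FPKM in MLL-AF9 cells and 60.8 FPKM in control cells, which did not pass (q = 0.17 in the authors' deposited table).

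In both groups the decoy transcript outnumbered the signalling one. The level of Il1r2 per Il1r1 was 6.43 in MLL-AF9 cells and 89.3 in control cells, where the denominator was under 1 FPKM. The accessory chain Il1rap per Il1r1 was 1.99 in MLL-AF9 cells and 13.1 in control cells. Il1r2 and Il1r1 are neighbours on chromosome 1, followed by other receptors of the family. Of these Il1rl2, the receptor of the IL-36 cytokines, was listed at 2.31 FPKM in MLL-AF9 cells and 1.4 FPKM in control cells. Il18rap, the accessory chain of the IL-18 receptor, was at 32.1 FPKM in MLL-AF9 cells and 36.0 FPKM in control cells. Neither passed, so Il1r1 was the 1 gene called among the 4 measured in this cluster.

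The inflammasome genes kept moderate levels in both groups. Nlrp3, the sensor, was at 15.4 FPKM in MLL-AF9 cells and 16.2 FPKM in control cells, with q = 0.960 in the authors' deposited table. Pycard, the adaptor, was at 43.0 FPKM in MLL-AF9 cells and 34.1 FPKM in control cells, with q = 0.774 in the authors' deposited table. Casp1, the protease, was at 37.9 FPKM in MLL-AF9 cells and 49.4 FPKM in control cells, with q = 0.746 in the authors' deposited table. Summed, the 3 came to 96.4 FPKM in MLL-AF9 cells and 99.7 FPKM in control cells. A q-value above the threshold does not show that the levels were equal, and without values per library no interval can be given for these differences. Set beside its substrate, Casp1 stood at 8.70 times the level of Il1b in MLL-AF9 cells and 0.310 times in control cells.

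The wider pathway was read from 8 lists with 84 genes, of which 77 were matched by symbol and 60 reached the minimum mean. Of these 7 were lower (11.7%), 2 higher (3.33%) and 51 did not pass. Of all rows tested, 5.2% were lower and 5.13% higher. The median log2 change of the pathway genes was 0.01, against 0.29 over all rows tested. Among the other IL-1 family ligands only Il1f9, which encodes IL-36gamma, reached the minimum mean. It fell 4.20-fold, to 28.3 FPKM in MLL-AF9 cells against 119 FPKM in control cells (q = 0.00223 in the authors' deposited table), and so had a higher level than Il1b in MLL-AF9 cells, 6.49 times it, against 0.744 times in control cells. Il1f9 and Il1rn belong to 1 cluster on chromosome 2, and Il1f5, Il1f6 and Il1f10 between them were listed at 0 in both groups. Il33, a ligand of barrier tissues, had 0.314 FPKM in MLL-AF9 cells against 0.0651 FPKM in control cells, below the minimum mean.

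Of the other receptors and decoys 4 were tested, with 1 lower (Il18bp), 0 higher and a median log2 change of 0.15. Il1rl1 and Il18r1 of this list were not matched and not counted. Of 7 other inflammasome sensors, 1 rose and 1 fell, with a median log2 change of 0.78, which was 0.40 with a pseudocount of 5 and 0.48 with centring on the median of all rows. Nlrc4, the sensor that pairs with NAIP proteins on bacterial flagellin, rose to 10.5 FPKM in MLL-AF9 cells against 3.14 FPKM in control cells (q = 0.0464 in the authors' deposited table). Nlrp12 fell 9.29-fold, to 1.75 FPKM in MLL-AF9 cells against 16.3 FPKM in control cells (q = 8.86e-05 in the authors' deposited table). Aim2, a sensor of cytosolic DNA, was at 40.5 FPKM in MLL-AF9 cells and 21.4 FPKM in control cells without passing. Naip6 and Mefv of the sensor list were not matched and not counted. The Naip genes are close paralogs whose reads can be shared, so single values are uncertain: Naip1, Naip2 and Naip5 were listed at 4.43, 28.6 and 31.1 FPKM in MLL-AF9 cells, against 2.13, 21.4 and 17.7 FPKM in control cells.

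Of 5 caspase and pyroptosis genes 1 fell and 0 rose, with a median log2 change of -0.37. That gene was Dfna5, which encodes gasdermin E, a pore-forming protein released by caspase-3. It was 13.5-fold lower, at 4.22 FPKM in MLL-AF9 cells and 56.9 FPKM in control cells (q = 1.08e-06 in the authors' deposited table). Gsdmd, the gasdermin that caspase-1 cleaves, was at 94.7 FPKM in MLL-AF9 cells and 88.8 FPKM in control cells (q = 0.946 in the authors' deposited table). Casp4, which lies next to Casp1 on chromosome 9 and senses lipopolysaccharide in the cytosol, was at 21.8 FPKM in MLL-AF9 cells and 28.5 FPKM in control cells. It did not pass.

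Of 12 inflammasome regulators 1 rose and 1 fell, with a median log2 change of -0.27. P2rx7, the ATP-gated channel whose opening triggers NLRP3, rose 2.33-fold, to 14.0 FPKM in MLL-AF9 cells against 6.01 FPKM in control cells (q = 0.0352 in the authors' deposited table). Gbp2, an interferon-induced GTPase, fell 8.08-fold, to 1.33 FPKM in MLL-AF9 cells against 10.7 FPKM in control cells (q = 0.00297 in the authors' deposited table). Serpinb1a, an inhibitor of neutrophil proteases, had the highest level among those not called, at 239 FPKM in MLL-AF9 cells and 324 FPKM in control cells.

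The signalling chain below the receptor stayed mostly under the threshold. Of 13 genes of the MyD88 pathway 1 fell and 0 rose, with a median log2 change of 0.00. Peli2, an E3 ligase that acts on IRAK proteins, was at 1.45 FPKM in MLL-AF9 cells and 6.17 FPKM in control cells (q = 0.0232 in the authors' deposited table). Myd88 itself, the adaptor of IL-1 and Toll-like receptors, was at 46.6 FPKM in MLL-AF9 cells and 74.8 FPKM in control cells without passing. Irak1 was not matched and not counted. Of 12 NF-kappaB factors and inhibitors 0 rose and 0 fell in the authors' deposited table, with a median log2 change of 0.07; 1 had an unadjusted p under 0.05 there. Nfkb2 and Ikbkg of this list were not matched and not counted. The highest of those tested in MLL-AF9 cells was Nfkb1, at 125 FPKM in MLL-AF9 cells and 54.3 FPKM in control cells (q = 0.169 in the authors' deposited table). In control cells Nfkbia, the inhibitor IkappaB-alpha, was higher, at 81.9 FPKM in MLL-AF9 cells and 81.3 FPKM in control cells.

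Of 6 tested genes that IL-1 is known to induce, 1 fell and 0 rose, with a median log2 change of -0.30. The gene that fell was Mmp9, a gelatinase stored in neutrophil granules, at 46.8 FPKM in MLL-AF9 cells and 946 FPKM in control cells (q = 4.98e-06 in the authors' deposited table). Mmp9 is also a member of the neutrophil marker list below. Tnf was at 20.9 FPKM in MLL-AF9 cells and 17.7 FPKM in control cells without passing, and Il6 was listed at 0.216 FPKM in MLL-AF9 cells and 1.01 FPKM in control cells, below the minimum mean. With the changes centred on the median of all rows, which shifts each value by -0.29, the medians of the receptor, MyD88 and NF-kappaB lists were below 0.

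**Figure D3:**
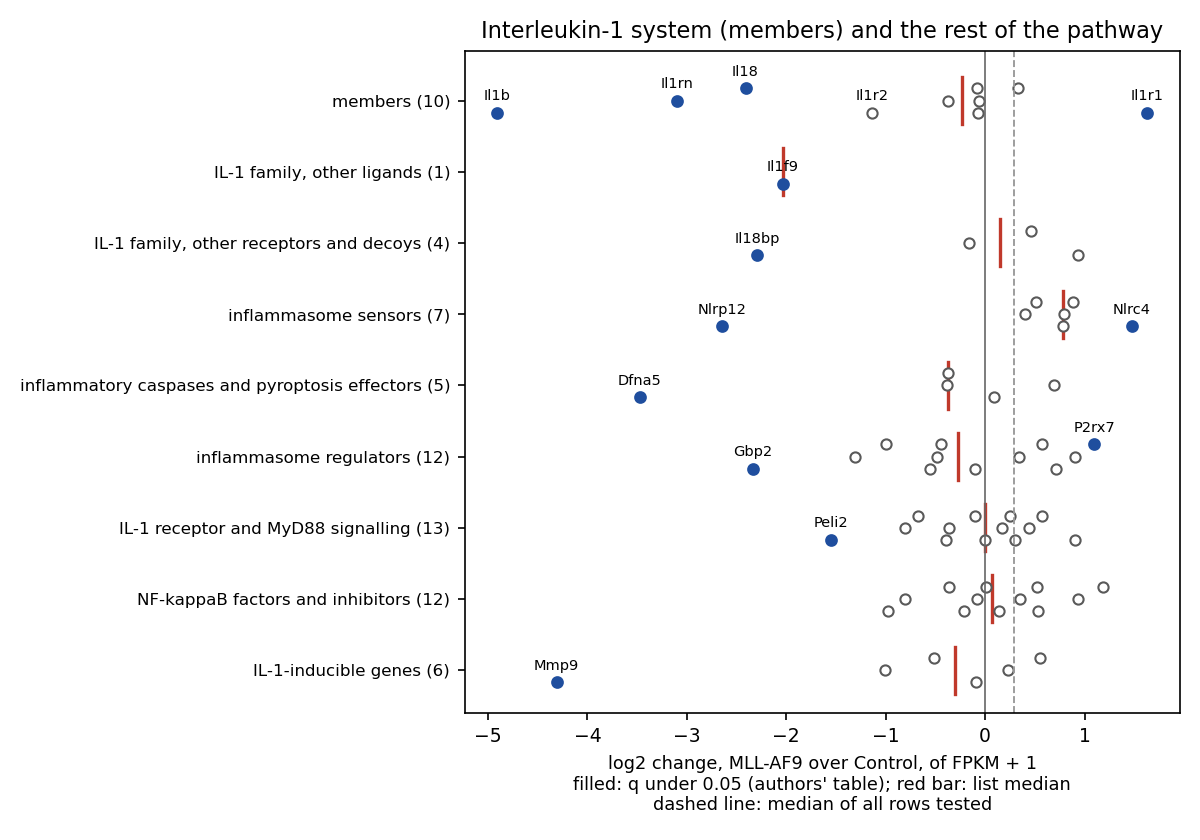
Log2 change of FPKM + 1, MLL-AF9 over Control, of each gene of the system (top) and of each pathway gene with a mean of at least 1 FPKM, by list, with the number of genes plotted in brackets; filled points have q under 0.05 in the authors' deposited table, red bars are list medians and the dashed line is the median of all rows tested. The called genes Il1b, Mmp9, Dfna5 and Il1rn lie below -3, and most points of the signalling and NF-kappaB lists lie between -1 and 1.

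Cell type markers moved in the same comparison, in which 5.2% of all rows tested were lower and 5.13% higher. In bulk RNA, fewer cells of a type and less RNA per cell cannot be told apart. A marker below 1 FPKM in 1 group reached the minimum mean only through the other, so it could be called in 1 direction only. Outside the lymphoid lists this held for Fcgr1, Mrc1, Cd5l, Ccr3, Klf1 and Epor, which were lower. It also held for Hoxa9, Mecom, Pdgfrb and Vwf, which were higher. Of 10 markers of mature neutrophils, known sources of IL-1beta, 9 fell and 0 rose, with a median log2 change of -3.71 and a summed level of 22152 FPKM in MLL-AF9 cells and 195854 FPKM in control cells. S100a8 makes up most of both sums, at 16211 FPKM in MLL-AF9 cells and 130850 FPKM in control cells. Cxcr2, the chemokine receptor of mature neutrophils, was at 10.9 FPKM in MLL-AF9 cells and 182 FPKM in control cells, a 16.8-fold lower level. Ly6g and Csf3r of the neutrophil list were not matched and not counted. Of 6 genes of the earlier primary granule stage 1 rose and 0 fell, and the summed level was 4496 FPKM in MLL-AF9 cells and 2967 FPKM in control cells. None of these markers was listed at 0 in both groups.

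Among 10 monocyte markers 2 fell and 0 rose, with a median of -0.30 and a sum of 2727 FPKM in MLL-AF9 cells and 14355 FPKM in control cells. Lyz2, at 890 FPKM in MLL-AF9 cells and 12233 FPKM in control cells, made up most of the control sum and did not pass. Ly6c2 was at 1245 FPKM in MLL-AF9 cells and 1566 FPKM in control cells without passing. Of 8 tested macrophage markers 6 fell and 0 rose, with a median of -2.12 and a sum of 164 FPKM in MLL-AF9 cells and 186 FPKM in control cells. Cd68 and Emr1 carried most of both sums and did not pass. Of 8 B lymphoid markers 8 fell, and of 9 T and NK markers 9 fell. All of these except Cd79a, Cd79b and Nkg7 were below 1 FPKM in MLL-AF9 cells. They reached the minimum mean only through control cells, so they could be called only as lower. The B lymphoid sum was 34.1 FPKM in MLL-AF9 cells, of which Cd79b made up 28.5 FPKM, against 648 FPKM in control cells. The T and NK sum was 23.9 FPKM in MLL-AF9 cells, of which Nkg7 made up 20.4 FPKM, against 172 FPKM in control cells. Of 8 stem and progenitor markers 6 rose and 0 fell, with a sum of 404 FPKM in MLL-AF9 cells and 56.5 FPKM in control cells. Flt3, at 160 FPKM in MLL-AF9 cells and 5.75 FPKM in control cells, was the largest part of the MLL-AF9 sum. It is also among the dendritic markers below that rose. Kit, at 12.9 FPKM in MLL-AF9 cells and 14.3 FPKM in control cells, did not pass, nor did Gata2, at 27.2 and 11.2 FPKM. The part of these cell types in the falls of Il1b, Il1rn and Il18 and in the rise of Il1r1 was not tested.

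Of 6 dendritic markers 2 rose and 0 fell, of 7 basophil and mast cell markers 1 rose and 3 fell, and of 5 megakaryocyte markers 1 rose and 1 fell. These short lists stand beside 5.13% of all rows tested that were higher and 5.2% that were lower. Zbtb46 of the dendritic list and Gp1bb of the megakaryocyte list were not matched and not counted. Eosinophil markers numbered 4, of which 3 fell and 0 rose, and 5 of 7 erythroid markers fell and 0 rose. Of 7 stromal and endothelial markers 3 reached the minimum mean, of which 2 rose and 0 fell. They were Pecam1, which leukocytes also express, at 105 FPKM in MLL-AF9 cells and 17.1 FPKM in control cells, and Pdgfrb, at 12.1 and 0.519 FPKM. Cxcl12, at 4.29 FPKM in MLL-AF9 cells and 8.69 FPKM in control cells, did not pass. Col1a1, Col1a2, Cdh5 and Lepr were below the minimum mean, so the list as a whole does not show a rise. Cells labelled as bone marrow mononuclear cells held markers of many lineages in both groups.

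**Figure D4:**
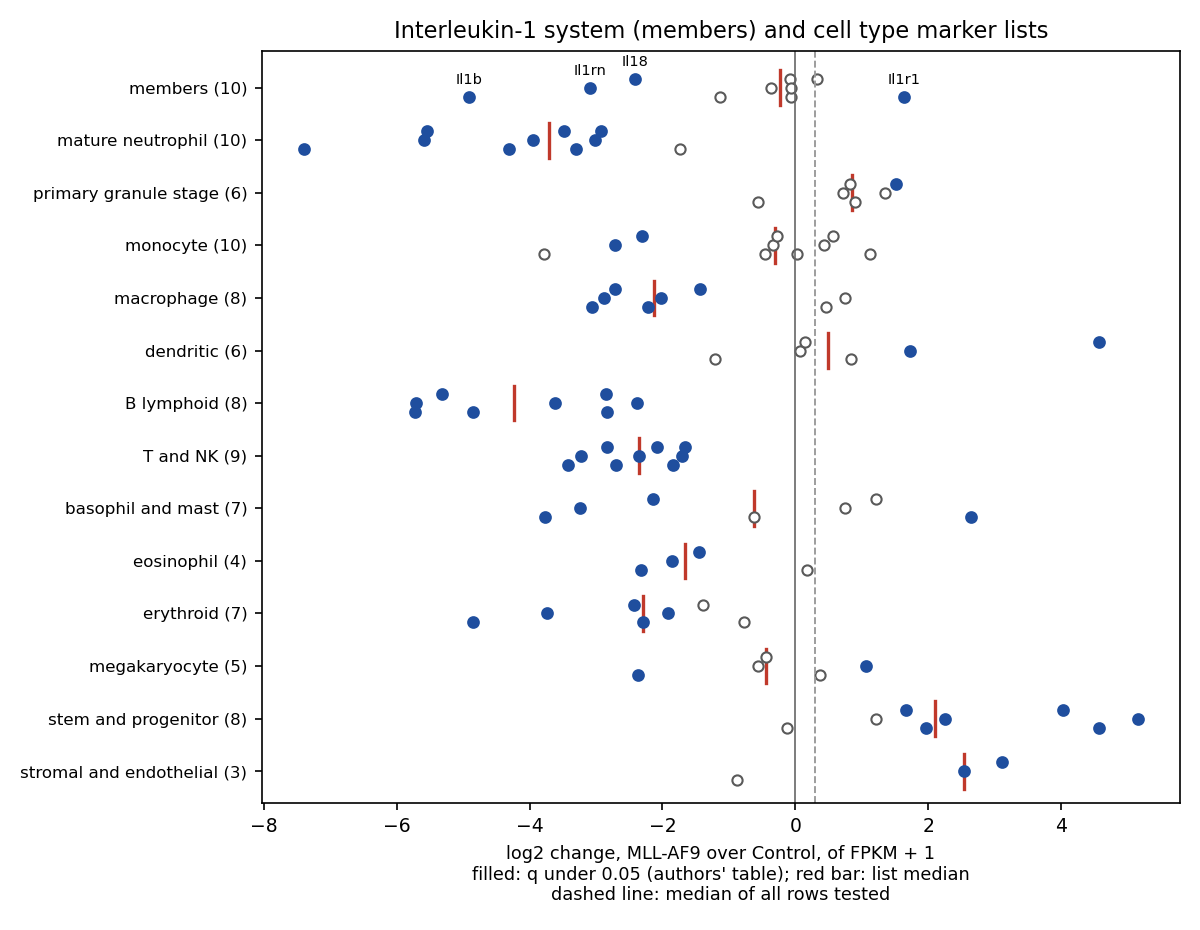
Log2 change of FPKM + 1, MLL-AF9 over Control, of the genes of the system (top) and of cell type markers with a mean of at least 1 FPKM, by list, with the number plotted in brackets; filled points have q under 0.05 in the authors' deposited table, red bars are list medians and the dashed line is the median of all rows tested. All plotted markers of mature neutrophils, B lymphoid, T and NK and erythroid cells lie below 0, and 7 of the 8 stem and progenitor markers lie above it.

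The rows nearest to Il1b, by distance on the plane of log2(FPKM + 1) in both groups, were 1 unnamed assembled locus and Orm1, Fpr1, Cd79a and Clec4d. This likeness rests on 2 pooled values, so any gene of the same level and fall is near. Fpr1, the receptor of formylated bacterial peptides on phagocytes, was at 6.31 FPKM in MLL-AF9 cells and 148 FPKM in control cells. Clec4d, a C-type lectin of myeloid cells, was at 5.64 FPKM in MLL-AF9 cells and 104 FPKM in control cells. Orm1, an acute-phase protein, was at 6.01 FPKM in MLL-AF9 cells and 137 FPKM in control cells. Cd79a, which carries the signal of the antigen receptor on B cells, was at 2.97 FPKM in MLL-AF9 cells and 210 FPKM in control cells.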

How the data were processed

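RNA values are those of the authors' deposited table, which holds 1 pooled value per gene for MLL-AF9 and for control cells. The unit was taken as FPKM, since the header of the deposited table does not name it and Cufflinks is listed in the submitters' processing notes. The submitters' processing notes name build mm9 and the tools Cufflinks 1.3.0, TopHat 1.4.1, MACS 1.4, Bowtie 0.17.2 and CASAVA 1.8.2, without roles or settings. The p-value and q-value per row are the authors' own, and the file headers do not say which test gave them. The labels' protocols speak of duplicate RNA samples per genotype although 3 are listed, so which libraries entered the pooled values is unknown. They name a kit that does not keep strand, so reads of overlapping genes cannot be separated.

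No test was computed anew, because values per library were not at hand. A gene was called where the authors' q-value was under 0.05 and the mean of the 2 groups at least 1 FPKM. Log2 changes are of FPKM + 1, MLL-AF9 over control, and understate the change of low genes. Folds are ratios of FPKM. S100a9 was left out, since its control value is 0 while its p-value is 1, which was read as a failed estimate. Other rows listed at 0 in 1 group were kept. The code of the call rule and of the adjustment of p-values was run on simulated data with noise of a set size. That run checks the code only and says nothing about the authors' q-values or the calls made from them.

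The members and lists were chosen with earlier results of these data known. The text names all 10 members. From each pathway list it names up to 4 called genes by q-value and the highest gene not called, and from some marker lists 1 or 2 of those with the highest mean. It takes the 5 rows nearest to Il1b. Other list genes, motifs and neighbours were chosen after values were seen. Sequences and gene order came from RefSeq tables of build GRCm38.p6, matched by symbol for 10 of 10 members. No coordinate was compared with mm9. Values were computed in pandas 2.3.3, scipy 1.17.1 and numpy 2.4.6 under Python 3.11.15 and drawn in matplotlib 3.10.9. Alternatives changed the pseudocount, the filter, the scaling and the q-value threshold.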

Additional observations from a re-analysis of the deposited data

How the results depend on the processing

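All 10 alternatives use the same pooled values and the authors' p-values and q-values, so they do not measure spread between libraries. A change of pseudocount, filter, q-value threshold or p-value adjustment cannot reverse the sign of a log2 change. Quantile normalization, centring and rescaling without small RNA rows, S100a8 and S100a9 can. Each of the 10 members kept its sign under these. Il1b ranged from -5.20 with centring on the median to -4.14 with a pseudocount of 5. The pseudocount moved the low genes most: Il18 was at -3.58 with 0.1 and -1.11 with 5, and Il1r1 at 2.46 and 0.70. Whether a gene passes does not depend on the pseudocount or on centring. With a mean of at least 5 FPKM lower calls numbered 2 and higher calls 0, since Il18 and Il1r1 are below that mean. The median of the members was -0.45 with quantile normalization and -0.52 with centring. Higher calls among pathway genes were 0 at q under 0.01 and 4 at q under 0.1. Medians below 0 in place of above it were seen for other receptors and decoys (-0.16 with a mean of at least 5 FPKM, -0.0025 with quantile normalization, -0.14 with centring), MyD88 signalling (-0.21 with quantile normalization, -0.29 with centring) and NF-kappaB (-0.11 and -0.22). No paired analysis was possible because values are pooled per group, and leaving out a replicate was not run for the same reason. Alternatives for 5hmC regions were not run.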

Other observations

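Rows whose symbol starts with Il and a number, a family chosen after values were seen, number 79, of which 31 that are not members of the system reached a mean of 1 FPKM. Of these 3 were higher and 7 lower, Il18bp and Il1f9 among the lower ones, while of all rows tested 5.13% were higher and 5.2% lower. Il12a, a subunit of IL-12 and IL-35, was at 38.4 FPKM in MLL-AF9 cells and 6.84 FPKM in control cells (q = 0.00318 in the authors' deposited table). Il31ra was at 10.6 FPKM in MLL-AF9 cells and 1.01 FPKM in control cells, and Il17rb at 8.92 FPKM in MLL-AF9 cells and 1.5 FPKM in control cells. Il15, which sustains NK cells, was at 6.04 FPKM in MLL-AF9 cells and 20.2 FPKM in control cells, and Il2rb, a receptor chain shared by IL-2 and IL-15, at 1.20 FPKM in MLL-AF9 cells and 13.1 FPKM in control cells. The remaining lower rows had larger folds than Il15. Il28ra was at 1.74 FPKM in MLL-AF9 cells and 21.0 FPKM in control cells, Il27ra at 0.427 and 5.67 FPKM, and Il9r at 0.110 and 2.48 FPKM. Il27ra and Il9r reached the minimum mean only through control cells.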
